A study of Mus musculus with 9 samples.

Results

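Type B intercalated cells are the bicarbonate-secreting cells of the connecting tubule and cortical collecting duct of the kidney. They were picked out of droplet-based scRNA-seq libraries of 9 mouse kidneys by the transcripts they contained. A cell was kept with at least 1000 UMIs (unique molecular identifiers, each counting 1 captured transcript), at least 500 genes and at most 15% mitochondrially encoded UMIs. It was taken as type B when it had at least 2 UMIs summed over Slc26a4, Insrr, Hmx2 and Slc4a9, at least 1 UMI over Atp6v1g3, Atp6v0d2 and Foxi1, and no UMI of the type A genes Slc4a1 and Aqp6. At most 1 UMI was allowed over Umod, Slc12a1, Slc12a3, Kdr, C1qa and C1qb, which mark the loop of Henle, the distal convoluted tubule, endothelium and macrophages. In all, 445 of 196925 kept cells met the rule, 0.226%.

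The mice were male C57BL/6, 6 weeks old before 1 week of adaptation, with 3 mice in each of 3 groups and 1 library per mouse. Control mice received saline. AKI-CKD mice received cisplatin at 8 mg/kg by intraperitoneal injection once a week for 4 weeks, a model of acute kidney injury (AKI) passing into chronic kidney disease (CKD). AKI-CKD + EGT mice received the same cisplatin course and drank water with 0.5 mg/mL ergothioneine (EGT, a diet-derived antioxidant) from 3 days before the first injection to the end. EGT was therefore present before the injury began, and there was no group with EGT alone. Kidneys were taken after 8 weeks, and the sources used here describe no sorting of the cells.

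In a type B cell the anion exchanger pendrin, encoded by Slc26a4, sits in the apical membrane and exchanges chloride from the urine for bicarbonate from the cell. A V-type proton pump at the opposite, basolateral, side returns protons to the blood. Type A intercalated cells are built the other way round, with the pump at the apical side and the exchanger Slc4a1 at the basolateral side, and secrete acid. Both types depend on the transcription factor Foxi1, and both arise from the same progenitors as the principal cells, which carry the water channel Aqp2 and reabsorb sodium under aldosterone.

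The files held 216680 barcodes, 18207 to 28997 per mouse, with 70106161 to 101525691 UMIs per mouse. Kept cells numbered 17196 to 27463 per mouse, and their median depth was 2534 to 2966 UMIs. The type B cells numbered 30, 85 and 23 in Control mice 1, 2 and 3, 55, 40 and 49 in AKI-CKD mice 1, 2 and 3, and 29, 54 and 80 in EGT mice 1, 2 and 3. Summed over the type B cells of 1 mouse the counts came to 94991 UMIs in Control mouse 3, the lowest, and 331423 in Control mouse 2, the highest. Cells are named by running numbers in the files, so barcodes shared between libraries could not be counted. None of the 445 type B cells had the same counts over all genes as another, which is 0 of 445.

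The 4 type B genes of the rule were found together more often than singly. UMIs of all 4 were present in 158 cells (35.5%), of 3 in 110 (24.7%), of 2 in 88 (19.8%) and of 1 alone in 89 (20.0%). Slc26a4 was detected in 78.2% of the cells, and Slc4a9, a basolateral anion exchanger of these cells, in 71.9%. Hmx2, a homeobox transcription factor, was detected in 66.7%, and Insrr, a receptor that responds to alkaline pH, in 58.9%. Only 18 cells had Insrr without Slc26a4, against 244 with both. These shares follow from the rule and are a description. In principal cells, chosen by at least 2 UMIs of Aqp2, Aqp3, Hsd11b2 and Scnn1g with none of the intercalated genes, Slc26a4 was detected in 1.68%, Slc4a9 in 1.47%, Hmx2 in 0.482% and Insrr in 0.275% of 4357 cells. Depth was alike, with a median of 3425 UMIs in type B cells and 3518 in principal cells.

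The cut of 2 UMIs fell within a continuous range. Among cells that met every other limit, 302 had exactly 1 UMI of the 4 genes and were left out, with 6 to 150 per mouse and the highest number in EGT mouse 3. Just inside it, 79 cells had 2 UMIs, 43 had 3 and 323 had 4 or more. The intercalated genes alone kept out 249 further cells and the genes of other cell types alone 232. Another 213 cells had UMIs of both the type B and the type A genes and were put in neither type. Of these, 73 had more type B UMIs, 134 more type A UMIs and 6 equal numbers. Slc4a9 was detected in 95.8% of the 213 cells, Slc26a4 in 28.2%, Insrr in 23.0% and Hmx2 in 20.7%. The 213 had a median of 32 intercalated-gene UMIs, against 13 in the 113 cells taken as type A. Cells with type A genes and Slc4a9 are thus missing from the type A set. How far their absence moves the levels set beside type A cells was not tested. Slc4a9 alone does not tell the 2 types apart, and 49 type B cells had Slc4a9 without Slc26a4. Whether any of those 49 were type A cells with no captured UMI of Slc4a1 or Aqp6 was not tested. No doublet caller was applied, so the number of droplets with 2 cells among the 213 was not tested.

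The levels of these genes were then set beside those in type A and principal cells. Values are CPM (UMIs of a gene scaled to a common total) of the cells summed per mouse, given as the lowest, median and highest of the 9 mice. Slc26a4 stood at 1002, 1267 and 1812 CPM in type B cells and at a median of 3.11 CPM in principal cells. The pump subunit Atp6v1g3 stood at 3309, 7273 and 9453 CPM in type B cells, at a median of 3548 CPM in type A cells, and was at 0 in principal cells, where the rule required it to be. Slc26a4, Insrr, Hmx2 and Slc4a9 are at 0 in the 113 type A cells for the same reason.

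Genes that the rule did not name set the type B cells apart as well, as a description and without a test. Car15, a membrane-anchored carbonic anhydrase, stood at 1176, 2300 and 4613 CPM in type B cells, with medians of 79.9 CPM in type A and 151 CPM in principal cells. Car12, another membrane carbonic anhydrase, had medians of 842, 245 and 107 CPM in type B, type A and principal cells, and Car2, the cytosolic form, 1814, 1136 and 276 CPM. Hepacam2, an intercalated surface protein, had medians of 295, 81.0 and 1.16 CPM. Syt7, a calcium sensor of vesicle fusion, had medians of 146, 0 and 0.583 CPM. All 5 were higher in type B than in type A and in principal cells of every one of the 9 mice. Jag1, a ligand of the Notch pathway through which intercalated and principal cells settle their fates, had medians of 72.3, 21.8 and 2.59 CPM, and was higher in type B than in type A cells of 8 of 9 mice.

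Genes linked to type A cells ran the other way. The ammonia transporter Rhbg had a median of 513 CPM in type B and 971 CPM in type A cells. Adgrf5, an adhesion receptor, had medians of 21.7 and 412 CPM, and the receptor kinase Kit 31.6 and 222 CPM. Dmrt2, a transcription factor of type A cells, had a median of 0 in type B cells and 68.2 CPM in type A cells. For these 4 genes type B was lower than type A in all 9 mice. Slc26a7, the second chloride-bicarbonate exchanger of type A cells, had no count in type B cells and only 3 in type A cells. The shared pump subunit Atp6v1b1 did not set the types apart, with medians of 742 and 652 CPM and type B higher in 5 of 9 mice.

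**Figure D1:**
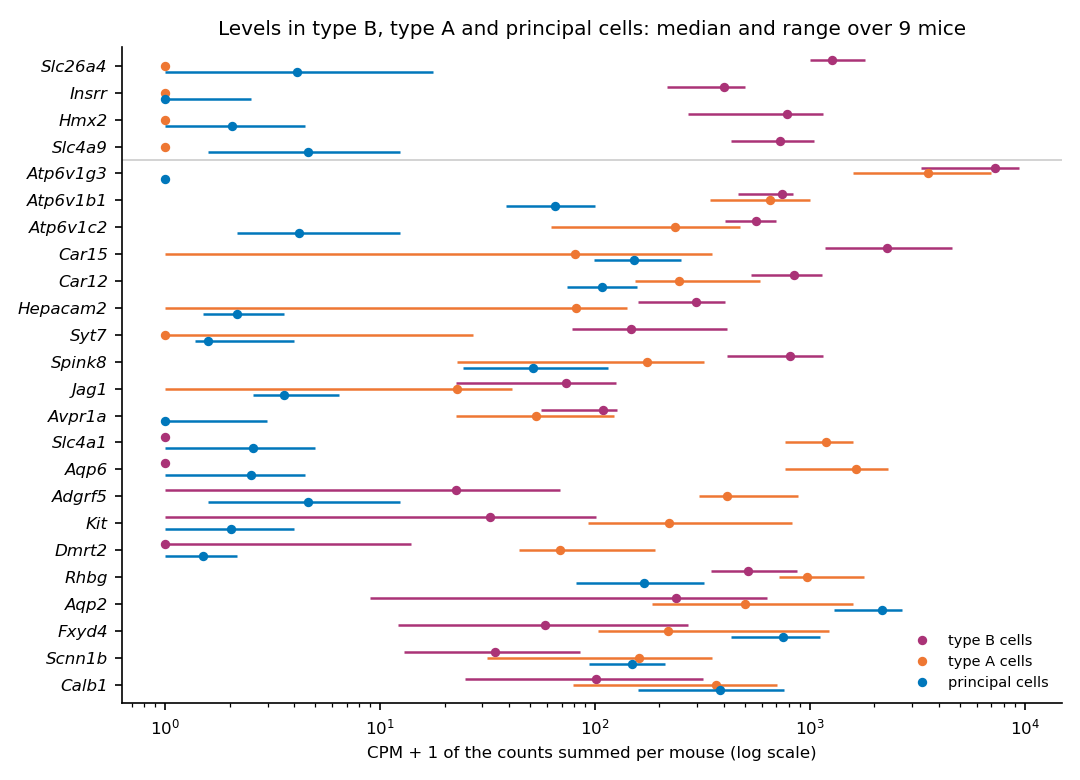
Levels of 24 genes in type B, type A and principal cells (CPM + 1, log axis), as the median of 9 mice with a bar from the lowest to the highest mouse. Car15, Hepacam2 and Syt7 lie higher in type B cells than in both other types, whereas Adgrf5, Kit and Rhbg lie higher in type A cells.

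The identity of the cells was checked against markers of other types. The T cell genes Cd3e, Cd3g and Trbc2, which the rule did not use, had 0 counts among 2021148 UMIs. The 4 macrophage genes measured besides those of the rule took at most 0.0683% of the UMIs of a mouse, in AKI-CKD mouse 2. Aqp2 was at a median of 237 CPM in type B and 2163 CPM in principal cells, and 33 type B cells had 10 or more UMIs of the principal cell genes. Transcripts of the proximal tubule, the most abundant epithelium of the kidney, were present throughout. Kap, an androgen-regulated proximal tubule gene, was detected in 100% of type B cells, in 100% of type A cells and in 99.98% of principal cells. The 8 proximal tubule markers, none at 0, took 6.35%, 6.29% and 3.84% of type B UMIs in Control mice 1, 2 and 3, 3.26%, 2.27% and 6.22% in AKI-CKD mice, and in EGT mice 5.40%, 5.70% and 6.87%. The ranges of the 3 groups overlapped, and the median AKI-CKD mouse was lowest.

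Depth and content per cell differed between the groups in medians over pooled cells, and the mice did not all follow them. The median type B cell held 2967 UMIs in Control, 4765.5 in AKI-CKD and 3255 in EGT mice, with 3.64%, 1.31% and 4.90% mitochondrially encoded UMIs. By mouse the mitochondrial median was 1.37% in Control mouse 3, inside the AKI-CKD range of 1.02% to 1.61%, and 2.29%, 3.51% and 6.43% in EGT mice 1, 2 and 3. Its UMIs of Atp6v1g3, Atp6v0d2 and Foxi1, of which the rule asked for 1, had medians of 21 in Control, 38.5 in AKI-CKD and 12 in EGT mice. EGT mouse 1 had a median of 23, within the Control range of 18 to 24, and EGT mice 2 and 3 had 10.5 and 11. Fewer than 5 such UMIs were found in 88 cells: 32 in Control mice (23.2%), 3 in AKI-CKD mice (2.08%) and 53 in EGT mice (32.5%), of which 31 came from EGT mouse 3. These 88 cells had a median of 6.63% proximal tubule UMIs and 3 UMIs of the 4 type B genes. The 357 cells with at least 5 such UMIs had medians of 2.66% and 9 UMIs. Each test between groups was therefore also run on the 357 cells alone, 106 from Control, 141 from AKI-CKD and 110 from EGT mice, an alternative added after seeing the data.

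**Figure D2:**
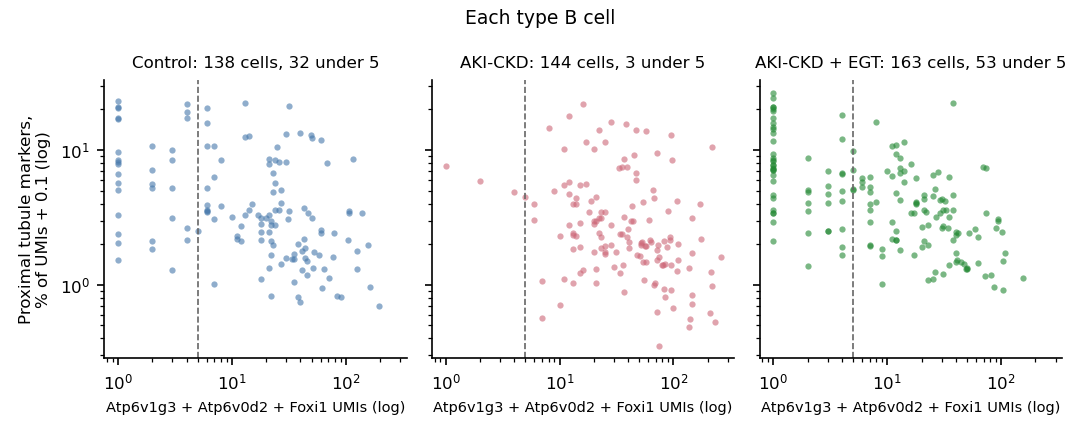
Each point is 1 type B cell, by its UMIs of the 3 intercalated genes of the rule and the percent of its UMIs in 8 proximal tubule markers, with 1 panel per group and a dashed line at 5 UMIs. To the left of the line lie 32 Control cells, 3 AKI-CKD cells and 53 EGT cells, with a median of 6.63% proximal tubule UMIs.

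How many type B cells a kidney yielded was compared first. Type B cells were 0.131% of the kept cells of Control mouse 1 (95% Clopper-Pearson interval 0.0881 to 0.186%), 0.310% of Control mouse 2 (0.247 to 0.383%) and 0.0938% of Control mouse 3 (0.0594 to 0.141%). They were 0.238% (0.179 to 0.309%), 0.207% (0.148 to 0.282%) and 0.210% (0.156 to 0.278%) of AKI-CKD mice 1, 2 and 3. In EGT mice 1, 2 and 3 they were 0.169% (0.113 to 0.242%), 0.248% (0.187 to 0.324%) and 0.464% (0.368 to 0.577%). The 3 AKI-CKD mice lay within the range of the Control mice and of the EGT mice, and EGT mouse 3 was highest. These intervals cover counting error only.

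The means were 0.178% ± 0.115 in Control, 0.218% ± 0.0167 in AKI-CKD and 0.294% ± 0.153 in EGT mice (SD, n = 3 each). AKI-CKD mice exceeded Control mice by 0.0405 percentage points (two-sided exact permutation test, p = 0.5), and EGT mice exceeded AKI-CKD mice by 0.0751 points (two-sided exact permutation test, p = 0.7). With 3 mice against 3 this test cannot go below 0.1. Without Control mouse 3 the first difference was -0.0016 points. Without EGT mouse 3 the second was -0.00997 points, and with at least 3 UMIs of the type B genes it was 0.00908 points. With the 357 cells alone the first difference was 0.0777 and the second -0.0159 points. The AKI-CKD mice enter both comparisons, which are therefore not independent.

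Within the intercalated cells, type B cells were 71.4%, 92.4% and 63.9% of the sum of type A and type B cells in Control mice 1, 2 and 3. AKI-CKD mice gave 79.7%, 67.8% and 83.1%, and EGT mice 78.4%, 76.1% and 86.0%. All 3 groups overlapped, and Control mouse 2 was highest. Group means were 75.9% ± 14.8, 76.9% ± 8.02 and 80.2% ± 5.21 (SD, n = 3 each). The differences were 0.95 points for AKI-CKD against Control (two-sided exact permutation test, p = 1) and 3.30 points for EGT against AKI-CKD (two-sided exact permutation test, p = 0.7). With the cells of both sets assigned to the larger sum, the means were 57.3%, 57.1% and 65.8%, and EGT mice exceeded AKI-CKD mice by 8.72 points (two-sided exact permutation test, p = 0.5). A shift of the balance between acid-secreting and bicarbonate-secreting cells was thus not detectable in 3 mice a group.

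**Figure D3:**
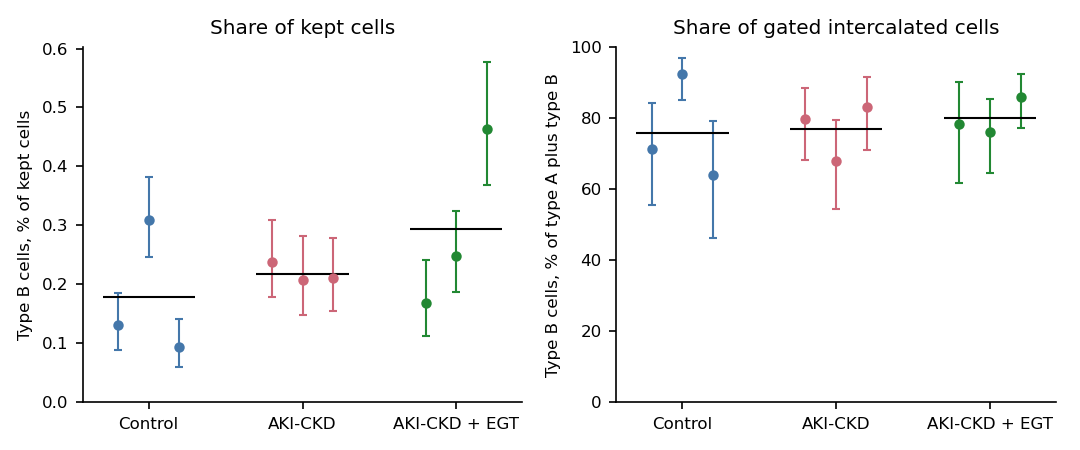
Type B cells as a percent of kept cells (left) and of type A plus type B cells (right) in each of the 9 mice, with 95% Clopper-Pearson intervals and a line at each group mean. The groups overlap in both panels, and EGT mouse 3 stands highest on the left at 0.464%.

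Expression between groups was compared on the counts summed per mouse with edgeR's quasi-likelihood test, and a gene was called at a Benjamini-Hochberg adjusted p under 0.05 over the 4409 genes tested. The 15 genes of the rule were left out of the test, because selection by them fixes their values in part. The mitochondrially encoded genes stayed in the test, although the 15% limit acts on them. As a description, Slc26a4 stood at 1082, 1364 and 1326 CPM in Control mice, 1159, 1267 and 1183 CPM in AKI-CKD mice and 1584, 1812 and 1002 CPM in EGT mice, with overlap of all groups. Foxi1 stood at 437, 492 and 558 CPM in Control mice, at 682, 527 and 435.5 CPM in AKI-CKD mice and at 289, 290 and 184 CPM in EGT mice, which were all below the other 6 mice. Hmx2 stood at 542, 571 and 271 CPM in the EGT mice, below the 788, 643 and 1158 CPM of Control mice and the 779 to 1122 CPM of AKI-CKD mice. The 32 Control, 3 AKI-CKD and 53 EGT cells with fewer than 5 intercalated UMIs enter these sums, and their part in the values was not tested.

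In type B cells of AKI-CKD mice 2 genes fell relative to Control, and none rose. They were Neat1, the nuclear long noncoding RNA that forms paraspeckles, and Atxn1, which encodes a chromatin-associated repressor. The 2 calls are 0.0454% of the genes tested, and an unadjusted p under 0.05 was reached by 467 genes. No gene was called when mouse 1 or 2 of either group was left out, 33 were called without Control mouse 3, and 5 without AKI-CKD mouse 3 or EGT mouse 3.

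Neat1 was at 385, 432 and 196 CPM in Control mice 1, 2 and 3 and at 100.4, 41.4 and 73.6 CPM in AKI-CKD mice 1, 2 and 3. All AKI-CKD mice were below all Control mice, with a log2 fold change of -2.27 ± 0.39 (SE; edgeR quasi-likelihood test, adjusted p = 0.0283). Atxn1 was at 131, 123 and 49.1 CPM in Control and at 21.5, 11.3 and 20.4 CPM in AKI-CKD mice. The groups did not overlap here either, with a log2 fold change of -2.56 ± 0.44 (edgeR, adjusted p = 0.0283). With the 357 cells alone neither passed, at log2 fold changes of -1.87 ± 0.39 for Neat1 and -2.14 ± 0.48 for Atxn1 (edgeR, adjusted p = 0.274 for both), and edgeR called 0 of 3166 genes, with 232 at an unadjusted p under 0.05.

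Genes close to the threshold are given as values. Malat1, an abundant nuclear long noncoding RNA, differed by -2.17 on the log2 scale (edgeR, adjusted p = 0.146), and Esrrg, a nuclear receptor of oxidative metabolism expressed in intercalated cells, by -2.40 (edgeR, adjusted p = 0.143). Fhit, a long gene at a fragile site, differed by -2.45 and Cyp2d12, a cytochrome P450, by -1.84, both with an adjusted p of 0.143 by edgeR. On the higher side were Fetub, a secreted protease inhibitor, at 1.76, the mitochondrial import chaperone Timm10 at 1.80, the membrane protein barttin, encoded by Bsnd, at 1.17, Car15 at 0.84 and the membrane protein Tmem213 at 0.79. These 5 had an adjusted p of 0.146 by edgeR.

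The gene groups of the type B cell were described by their counts and medians, beside a median of -0.01 over all 4409 genes. Of 17 proton pump subunits 14 were higher and 3 lower in AKI-CKD than in Control, with a median log2 fold change of 0.23 and none called. Of 11 genes of acid-base, chloride and ammonia transport 6 were higher and 5 lower (median 0.05), and of 80 nuclear-encoded genes of oxidative phosphorylation (OXPHOS) 79 were higher (median 0.36). The 11 mitochondrially encoded genes were all lower (median -0.97), 80 of 81 ribosomal protein genes were higher (median 0.31), and the 8 proximal tubule markers were all lower (median -0.57). In these 6 groups no member passed the test, so each is a direction of values and not a set of calls. The pump median was 0.17 with the 357 cells, and the acid-base group turned to 5 higher and 6 lower (median -0.08). The other medians there were 0.25 for the OXPHOS, -0.90 for the mitochondrially encoded and 0.24 for the ribosomal protein genes. Of the 8 proximal tubule markers 2 were higher and 6 lower with the 357 cells (median -0.31). Principal cells showed the same directions, with 78 of 80 OXPHOS genes higher (median 0.263), 0 of 11 mitochondrially encoded genes higher (-0.823) and 81 of 81 ribosomal protein genes higher (0.365). Their medians were 0.186 for 16 pump subunits, 0.175 for the acid-base group and -0.13 for the proximal tubule markers.

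EGT was the contrast with the larger number of calls in type B cells. The AKI-CKD mice enter it and the contrast with Control with opposite signs, so these are not independent. Relative to AKI-CKD, 212 genes rose and 83 fell, 295 of 4409, which is 6.69% in all, 4.81% higher and 1.88% lower. Neat1, Malat1 and Atxn1 were among the genes that rose, and so were 7 of 11 mitochondrially encoded transcripts. Car15, Bsnd, pump subunits and several ribosomal protein and nuclear OXPHOS genes fell. With the 357 cells alone, 31 of 3166 genes were called (0.979%), 28 higher and 3 lower, and all 31 were also among the 295. Leaving out EGT mouse 3 took the 295 calls to 45 and the 31 to 6. Without AKI-CKD mouse 2 they were 68 and 12, without AKI-CKD mouse 1 they were 117 and 17, and without Control mouse 3 they were 337 and 47.

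The 3 nuclear long noncoding RNAs tested rose, beside 4.81% of all genes tested. Neat1 was at 920, 652 and 1733 CPM in EGT mice 1, 2 and 3, all above the AKI-CKD mice and also above the 3 Control mice. Its log2 fold change was 3.94 ± 0.38 (edgeR, adjusted p = 8.14e-06), and 3.75 ± 0.37 with the 357 cells alone (edgeR, adjusted p = 3.4e-05). Malat1 was at 5189, 9021 and 1719 in Control, 2065, 844 and 642 in AKI-CKD and 6334, 8355 and 19870 CPM in EGT mice. The EGT mice lay above the AKI-CKD mice, with EGT mouse 3 far the highest, and the log2 fold change was 3.28 ± 0.52 (edgeR, adjusted p = 0.00136; 3.09 with the 357 cells, adjusted p = 0.00239). Kcnq1ot1, the noncoding RNA of an imprinted gene cluster, was at 3.58, 0 and 0 CPM in AKI-CKD mice and at 21.1, 58.9 and 90.8 CPM in EGT mice, which did not overlap. It had too few counts in AKI-CKD mice for a fold to be given, and it overlaps Kcnq1 on the opposite strand, while the use of strand in the counting is not given in the sources used here.

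Malat1 stays in the nucleus and is often read as a sign of RNA quality, so it was also followed from cell to cell. Type B cells with more than 1% of their UMIs in Malat1 were 1 of 55, 0 of 40 and 0 of 49 in AKI-CKD mice 1, 2 and 3, and 6 of 29, 17 of 54 and 33 of 80 in EGT mice. Control mice had 6 of 30, 21 of 85 and 1 of 23 such cells. In the 357 cells the EGT mice had 4 of 24, 8 of 37 and 14 of 49, the Control mice 1 of 20, 8 of 67 and 0 of 19, and the AKI-CKD mice none. The AKI-CKD mice were low throughout. The Control mice ranged from 4.35% to 24.7% of all type B cells, and from 0% to 11.9% of the 357 cells.

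Called genes also differed in length. The genomic span of the genes (GENCODE M21 annotation of GRCm38, matched by symbol for 4284 of 4409 genes) had a median of 23.1 kb over all genes tested, 131 kb over the genes that rose with EGT and 5.84 kb over those that fell. Over 100 kb were 14.8% of all genes tested, 112 of 210 matched genes that rose (53.3%) and 6.41% of those that fell. Among the calls in the 357 cells, 16 of 27 matched genes that rose exceeded 100 kb (59.3%), against 12.4% of all genes tested there. The part of depth, of nuclear RNA content and of the number of shallow cells in these calls was not tested.

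Among the genes that rose were 2 nuclear receptors with known roles in the collecting duct. Both are long genes, spanning 606 kb for Esrrg and 346 kb for Nr3c2, and 53.3% of the matched genes that rose exceeded 100 kb. Esrrg was at 356, 384 and 49.1 in Control, 71.7, 60.3 and 24.5 in AKI-CKD and 309, 334 and 764 CPM in EGT mice. It did not overlap between EGT and AKI-CKD mice, at a log2 fold change of 3.17 ± 0.50 (edgeR, adjusted p = 0.00136; 2.65 with the 357 cells, adjusted p = 0.00643). Nr3c2, the mineralocorticoid receptor through which aldosterone acts, was at 43.6, 60.1 and 39.3 in Control, 32.3, 18.8 and 28.6 in AKI-CKD and 133, 118 and 121 CPM in EGT mice. The 3 EGT mice lay close together and above the other 6, with a log2 fold change of 2.19 ± 0.35 (edgeR, adjusted p = 0.00136; 2.02 with the 357 cells, adjusted p = 0.026). Esrrg and Nr3c2 were the only called members of their groups, 8 tested genes of intercalated transcription and Notch signalling with a median of -0.22, and 5 tested hormone and metabolite receptors with a median of -0.48. Over all genes tested 4.81% were called higher, and nothing is read about either group from 1 call.

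Among genes whose mice did not overlap and whose average log2 CPM was 6 or more, the largest rises besides Neat1, Malat1 and Esrrg were those of Snx29, a sorting nexin, at 3.85, Atxn1 at 3.45, the cyclic AMP phosphodiesterases Pde4b at 3.37 and Pde4d at 2.82, the adhesion molecule Lsamp at 3.18, the choline kinase Chka at 3.05 and Fhit at 2.95. Each passed in all type B cells and with the 357 cells alone, where their log2 fold changes were 3.21, 2.95, 3.11, 2.38, 2.99, 2.16 and 2.95 in the same order. Atxn1 was at 168, 152 and 266 CPM in EGT mice, all higher than the AKI-CKD and the Control mice. Pkhd1, the gene of fibrocystin and of recessive polycystic kidney disease, was named after its values were seen. It was at 43.0, 22.6 and 28.6 CPM in AKI-CKD and 140, 93.2 and 242 CPM in EGT mice, a log2 fold change of 2.35 ± 0.44 (edgeR, adjusted p = 0.00461). On the lower side, besides Car15, stood Gm17634 at -1.50, the monocarboxylate transporter family member Slc16a5 at -1.40, the small membrane protein Smim26 at -1.36, Emc10 of the ER membrane complex at -1.32, Ccng1 and the acid sphingomyelinase Smpd1 at -1.31, Tmem9 at -1.27, the mitochondrial ribosomal protein Mrps12 at -1.22 and the transcription factor Sox4 at -1.19. Of these 9 genes none passed with the 357 cells alone.

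**Figure D4:**
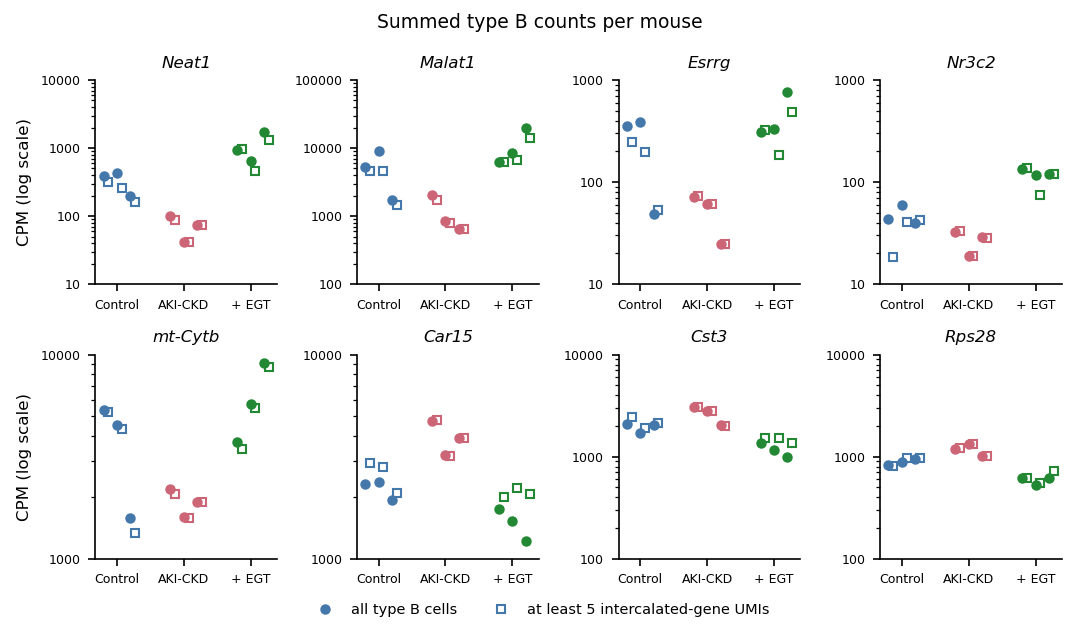
CPM of 8 genes in each of the 9 mice (log axis), from all type B cells (filled circles) and from the cells with at least 5 UMIs of the intercalated genes (open squares). Neat1, Malat1, Esrrg and Nr3c2 lie higher and Car15 lower in each EGT mouse than in each AKI-CKD mouse, for both sets of cells.

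Mitochondrially encoded transcripts and the nuclear genes of the same respiratory chain went in opposite directions. All 11 mitochondrially encoded genes tested were higher with EGT (median log2 fold change 1.35, against -0.02 over all genes). Of them 7 rose, beside 4.81% of all genes tested. In principal cells all 11 were higher too, with a median of 0.94. Over all kept cells these transcripts took a mean of 2.51% of UMIs in AKI-CKD and 4.75% in EGT mice, with 6.39% in EGT mouse 3. The 15% limit acts on these transcripts themselves, so their values are fixed in part by selection. It took EGT mouse 3 from 23853 to 17255 cells, and from 103 to 80 type B cells. Control mouse 1 went from 27685 to 22985 cells, and AKI-CKD mouse 3 from 23739 to 23298. mt-Cytb, of complex III, was at 5349, 4519 and 1591 in Control, 2197, 1605 and 1901 in AKI-CKD and 3736, 5755 and 9105 CPM in EGT mice, which did not overlap with AKI-CKD. Its log2 fold change was 1.71 ± 0.34 (edgeR, adjusted p = 0.00681), and 1.67 with the 357 cells (edgeR, adjusted p = 0.035). mt-Nd4, of complex I, rose by 1.69 on the log2 scale. These 2 were the mitochondrially encoded genes called with the 357 cells, where the median of the 11 was again 1.35.

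Of the 80 nuclear OXPHOS genes 79 were lower with EGT and 19 fell, beside 1.88% of all genes tested. The median log2 fold change was -0.49. In principal cells 7 of the 80 were higher, and the median was -0.22. Uqcr11, a small subunit of complex III, was at 2275, 2042 and 2121 in Control, 2746, 2821 and 2682 in AKI-CKD and 1587, 1678 and 1571 CPM in EGT mice. The 3 EGT mice were below the other 6, with a log2 fold change of -0.77 ± 0.17 (edgeR, adjusted p = 0.0135). Cox6b1, of complex IV, fell by 0.87 on the log2 scale (edgeR, adjusted p = 0.0302). With the 357 cells alone no nuclear OXPHOS gene was called and the median was -0.31. All 81 ribosomal protein genes were lower (median -0.42). Of them 9 fell, Rps28 of the small subunit included, beside 1.88% of all genes tested. In principal cells 1 of the 81 was higher, with a median of -0.28, and over all kept cells ribosomal protein transcripts took a mean of 9.11% of UMIs in AKI-CKD and 7.61% in EGT mice. Reads of these genes can be shared with processed pseudogenes, which makes single members uncertain. Rps28 was at 828, 895 and 953 in Control, 1197, 1345 and 1014 in AKI-CKD and 618, 525 and 622 CPM in EGT mice, a log2 fold change of -1.01 ± 0.19 (edgeR, adjusted p = 0.00461; -0.89 with the 357 cells, adjusted p = 0.0244). It was the only ribosomal protein gene called with the 357 cells.

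Of 11 tested genes of acid-base, chloride and ammonia transport 9 were lower and 2 higher with EGT (median -0.59). Of these 11, 4 fell, Car15 by the most, beside 1.88% of all genes tested. In principal cells the same 11 genes had a median of -0.34, with 3 higher. Slc26a4 itself, left out of the test, had overlapping groups, as given above. Car15 was at 2333, 2378 and 1935 in Control, 4750, 3239 and 3921 in AKI-CKD and 1748, 1531 and 1228 CPM in EGT mice. AKI-CKD mice were highest and EGT mice lowest, with no overlap of any pair of groups, and the log2 fold change between EGT and AKI-CKD was -1.41 ± 0.20 (edgeR, adjusted p = 0.0011). With the 357 cells it was -0.91 ± 0.19 (edgeR, adjusted p = 0.0276), the only call of the group there, and the group's median was -0.16.

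Bsnd and the ammonia transporter Rhbg fell as well. Bsnd was at 65.4, 99.1 and 78.6 in Control, 219, 181 and 172 in AKI-CKD and 119, 68.7 and 77.4 CPM in EGT mice, with a log2 fold change of -1.15 ± 0.29 (edgeR, adjusted p = 0.0232). The AKI-CKD mice were above the other 6. Rhbg fell by 0.75 on the log2 scale (edgeR, adjusted p = 0.0394). Neither was called with the 357 cells, where the values were -0.68 for Bsnd and -0.27 for Rhbg.

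Of 17 proton pump subunits 16 were lower with EGT (median -0.45), and 2 fell, beside 1.88% of all genes tested. These were Atp6v0e, of the membrane sector, by 0.95 and the accessory subunit Atp6ap1 by 0.72 on the log2 scale (edgeR, adjusted p = 0.0259 and 0.0333). Neither was called with the 357 cells, where the median was -0.17. Tmem213, 1 of 9 tested intercalated surface and other genes (8 lower, median -0.67), was at 2246, 2477 and 2602 in Control, 3997, 4452 and 4232 in AKI-CKD and 2788, 2095 and 1662 CPM in EGT mice. Again the AKI-CKD mice stood above the other 6, with a log2 fold change of -0.96 (edgeR, adjusted p = 0.00915; -0.53 with the 357 cells, adjusted p = 0.154). The median of the 9 was -0.19 with the 357 cells. Principal cells had a median of -0.472 over the 8 such genes tested there (2 higher), and of -0.093 over 16 pump subunits (5 higher). The cytosolic carbonic anhydrase Car2 and the membrane form Car12 were not called, at -0.41 and 0.34. Since 2 of the 3 genes behind the limit of 5 UMIs are pump subunits, that limit acts on pump and intercalated transcripts by construction, and the medians with the 357 cells are given as values only.

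Among genes of injury and stress 1 was called in each of 3 groups, beside 6.69% of all genes called and 1.88% called lower, and nothing is read from so few calls. Of 12 injury genes 10 were lower with EGT (median -0.68), and 1 fell, Cst3, the secreted protease inhibitor cystatin C. Cst3 was at 2108, 1700 and 2023 in Control, 3058, 2806 and 2024 in AKI-CKD and 1376, 1163 and 999 CPM in EGT mice. The EGT mice were below the other 6, with a log2 fold change of -1.16 ± 0.20 (edgeR, adjusted p = 0.00307; -0.85 with the 357 cells, adjusted p = 0.035). Of 11 p53 target genes 8 were lower (median -0.42) and Ccng1, a cyclin induced by p53, fell by 1.31. Of 19 immediate early and heat shock genes 16 were lower (median -0.37) and Fos fell by 0.93. Neither Ccng1 nor Fos was called with the 357 cells. There the medians were -0.26 for the injury genes, -0.34 for the p53 targets still tested, 6 in number, and -0.10 for the immediate early and heat shock genes. Principal cells moved the same way, with medians of -0.736 for the 12 injury genes (0 higher), -0.47 for the 11 p53 targets (3 higher) and -0.455 for the 19 immediate early and heat shock genes (0 higher).

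The antioxidant and EGT-related genes did not move together. Of 16 tested, 10 were higher and 6 lower (median 0.06), and Mt1, a metallothionein, fell by 1.04 (edgeR, adjusted p = 0.0201; adjusted p = 0.26 with the 357 cells). Over all genes tested 1.88% were called lower. Nfe2l2, the master regulator of the antioxidant response, differed by -0.44 and Gclc, the rate-limiting enzyme of glutathione synthesis, by 0.47, with an adjusted p of 0.347 and 0.367 by edgeR. Slc22a4, the EGT transporter, had too few counts in type B cells to be tested. Of 3 innate defence genes none was called.

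Transcripts of other cell types were tested in the same fit. The 8 proximal tubule markers were all higher with EGT (median 0.90), and 5 rose, beside 4.81% of all genes tested. The phosphate transporter Slc34a1 rose by 0.99, the endocytic receptor Lrp2 by 0.91 and the inositol oxygenase Miox by 0.90 on the log2 scale. The lactate transporter Slc5a12 rose by 2.69. With the 357 cells the median was 0.41, and Slc5a12 alone was called, at 2.60 (edgeR, adjusted p = 0.024). Kap was at 0.57 (edgeR, adjusted p = 0.421). Klk1, a kallikrein of the connecting tubule, fell by 1.02, and of 5 principal cell markers none was called (median -0.24, and 0.07 with the 357 cells). In type B cells with at most 10% proximal tubule UMIs, an alternative added after seeing the data, 335 of 3434 genes were called for EGT (9.76%), 257 higher and 78 lower. They included 245 of the 262 genes that had been called in all type B cells and were tested here.

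**Figure D5:**
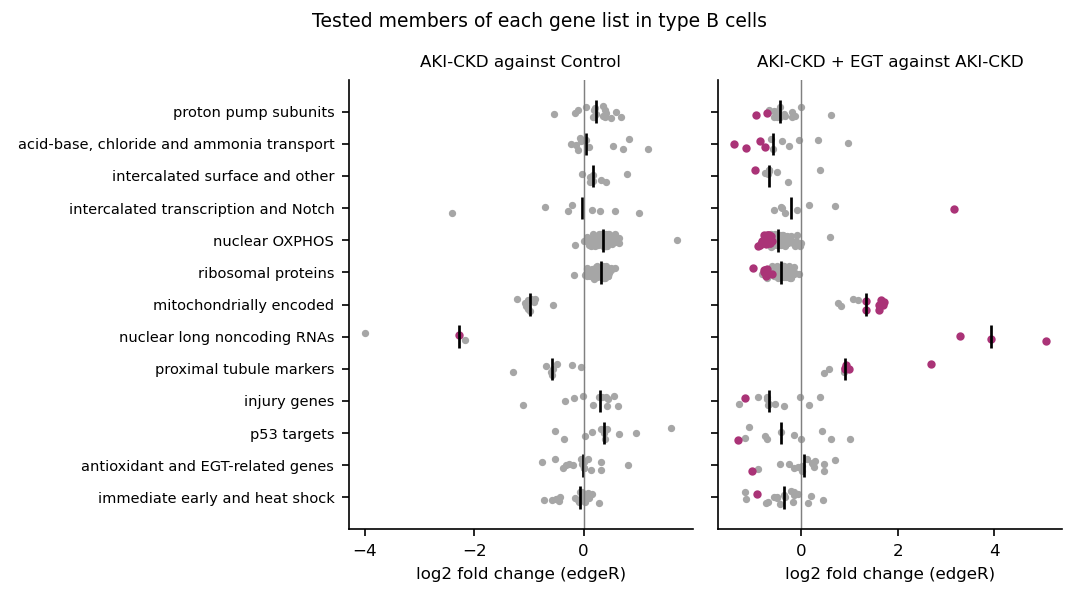
Log2 fold changes of the tested members of 13 gene groups in type B cells, for AKI-CKD against Control and for AKI-CKD + EGT against AKI-CKD. Magenta points passed an adjusted p of 0.05 and the black bar is the group's median. The mitochondrially encoded group has a median of -0.97 in the first panel and 1.35 in the second, and the nuclear OXPHOS group 0.36 and -0.49. No member of the mitochondrially encoded or nuclear OXPHOS group was called in the first panel, where Neat1, of the nuclear long noncoding RNAs, was called lower. The AKI-CKD mice enter both panels with opposite signs, so the panels are not independent.

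Whether the response of type B cells differed from that of their neighbours was tested with an interaction term in a fit with the mouse as a block. Against type A cells, no gene of 2019 was called for AKI-CKD against Control or for EGT against AKI-CKD (edgeR, smallest adjusted p = 0.998 and 0.169). An unadjusted p under 0.05 was reached by 67 and 99 genes. The 113 type A cells were few, and this test does not show that the 2 types respond alike. Malat1 differed by 2.02 ± 0.64 and Neat1 by 1.71 ± 0.71 on the log2 scale between the EGT responses of type B and type A cells, neither of which passed.

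Against principal cells, a fit added after seeing the data, the response to EGT differed for 100 of 10222 genes (0.978%), 94 with the higher value in type B cells and 6 with the lower. For AKI-CKD against Control 2 genes differed (0.0196%), named after their values were seen. The fitted difference was -10.5 ± 1.75 for Fabp4 and 4.86 ± 1.01 for H2-Ab1 on the log2 scale. Neither had enough counts to be tested in type B cells alone, so these values are no measure of size. Macrophage genes took 0.0683% of type B UMIs in AKI-CKD mouse 2, against 0.00174% and 0.0024% in AKI-CKD mice 1 and 3. The part of transcripts from other cell types in these 2 differences was not tested. Principal cells fitted alone had no called gene in either comparison among 10818 (edgeR, smallest adjusted p = 0.0641 and 0.23), with 1156 and 1069 genes at an unadjusted p under 0.05. With the 357 type B cells, 17 genes differed for EGT and 0 for AKI-CKD, where 416 had an unadjusted p under 0.05. Without EGT mouse 3 the 100 genes were 47, and without AKI-CKD mouse 2 they were 64. The principal cells held more proximal tubule RNA than the type B cells. The 8 markers took means of 12.1%, 9.05% and 10.4% of their UMIs in Control, AKI-CKD and EGT mice. In type B cells they took 5.49%, 3.92% and 5.99%, and over all kept cells 15.3%, 12.8% and 11.7%. Of 4357 principal cells 1386 had 10 or more UMIs of the 4 genes that chose them. The part of this in the differences was not tested.

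For Malat1 the EGT response was 2.57 ± 0.27 higher on the log2 scale in type B than in principal cells (edgeR, adjusted p = 5.14e-10). For Neat1 the difference was 2.74 ± 0.30 (edgeR, adjusted p = 9.79e-10), and for Esrrg 2.13 ± 0.36 (edgeR, adjusted p = 0.000166). All 3 also differed with the 357 cells. Nr3c2 differed by 1.93 ± 0.40 (edgeR, adjusted p = 0.00308), and by 1.72 with the 357 cells, where it did not pass (edgeR, adjusted p = 0.0654). Malat1 itself took 0.714%, 0.617% and 0.550% of principal cell UMIs in AKI-CKD mice, and 0.201%, 0.0832% and 0.0627% of type B UMIs. EGT mice had 0.715%, 0.837% and 1.62% in principal cells, with 0.652%, 0.853% and 1.90% in type B cells. Control mice had 1.22%, 1.13% and 1.26% in principal cells, with 0.512%, 0.906% and 0.184% in type B cells. The share was higher in principal cells of all 3 Control and all 3 AKI-CKD mice and of 1 of 3 EGT mice.

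Car15 differed by -1.14 ± 0.24 between type B and principal cells (edgeR, adjusted p = 0.00302), and by -0.70 with the 357 cells (edgeR, adjusted p = 0.465). mt-Cytb did not pass, at a difference of 0.39 ± 0.18 (edgeR, adjusted p = 0.392), beside a log2 fold change of 1.22 ± 0.40 in principal cells alone. Bsnd gave a difference of -0.01 ± 0.65, with a log2 fold change of -1.13 in principal cells. Tmem213 differed by -0.23 ± 0.19, with -0.79 in principal cells.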

How the data were processed

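The authors deposited 1 sparse table of unnormalized UMI counts, genes by barcodes, for each of the 9 mice. PISA 1.0 is named in the file headers, and GRCm39 in the submitters' processing notes. The aligner, the annotation and how barcodes were called as cells are not given in the sources used here. No barcode had fewer than 1000 UMIs. Groups were taken from the sample labels. The members and gene lists were chosen with earlier results of these data known.

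Cells were chosen by the rule stated at the opening of the results, and type A and principal cells by similar rules. The study's stated limits on UMIs, genes and mitochondrial content left 196925 of 216680 barcodes. That is more than the study states it retained, for a reason not found in the sources used here, and it is the denominator of the shares of kept cells. The study's own cell types were not used. Counts were summed per mouse and fitted with edgeR 4.0.16 in R 4.3.3: edgeR's filter on low counts, TMM scaling, the quasi-likelihood F test in a fit of the 9 mice, standard errors from the log2 fold change and F, and Benjamini-Hochberg adjustment over all genes tested. CPM between groups used TMM-scaled totals, and CPM between cell types or of rule genes plain totals. Cell shares were compared by exact permutation with scipy 1.17.1. The response of type B cells against that of type A or principal cells was an interaction term over 18 sums with the mouse as a block. The 4 genes that chose principal cells were left out of that fit. Fits were tested on simulated counts first. For AKI-CKD against Control, 30 of 200 genes changed by 1 on the log2 scale were recovered, with 3 false calls. Of 200 genes changed by 2, 167 were recovered, with 6 false calls. The few calls in that comparison therefore do not show that other genes were unchanged.

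Named genes were, in each list, the 4 members of highest mean CPM and every called member, and, per comparison and direction, up to 10 called genes of largest fold change whose mice did not overlap and whose average log2 CPM was 6 or more. Where fewer than 3 met this, the 5 of smallest p were given as values. Not every named gene is printed, and some are not reported here. Alternatives were DESeq2 1.42.0, RLE scaling, no filter, a fit of the 6 mice of a comparison, a block for the replicate number, library sizes without mitochondrial, ribosomal protein and Malat1 counts, at least 3 type B UMIs, no mitochondrial limit, thinning to 1000 UMIs and each mouse left out. At least 5 UMIs of the intercalated genes, at most 10% proximal tubule UMIs and the fit with principal cells were added after seeing the data.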

Additional observations from a re-analysis of the deposited data

Results flagged for a closer look

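The response to EGT differed between type B and principal cells, by the interaction test of edgeR at an adjusted p under 0.05, for 16 of the named genes given here. The values are the log2 fold change (AKI-CKD + EGT against AKI-CKD) in type B cells minus that in principal cells. The nuclear long noncoding RNAs gave 2.57 for Malat1, 2.74 for Neat1 and 4.34 for Kcnq1ot1, the last a fitted value that rests on very few counts in AKI-CKD mice and is no measure of size. Genes with a genomic span over 100 kb gave 2.67 for Atxn1, 2.60 for Snx29, 2.92 for Lsamp, 2.29 for Pde4d and 2.04 for Fhit. The nuclear receptors gave 2.13 for Esrrg and 1.93 for Nr3c2, and these genes are long too, with spans of 606 and 346 kb. The enzymes Chka and Cyp2d12 gave 2.15 and 1.98.

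The proximal tubule genes Slc5a12 and Slc34a1 gave 2.57 and 0.95. Car15 gave -1.14 and Smpd1 -1.24, the only negative ones among the 16. When type B cells were limited to those with at least 5 UMIs of the intercalated genes, Malat1, Neat1, Atxn1, Esrrg, Pde4d and Slc5a12 still passed the test, and the other 10 did not. With these fewer cells the differences of those 10 were 2.04 for Fhit, 1.72 for Nr3c2, 1.68 for Cyp2d12, 2.5 for Lsamp, 2.03 for Snx29, 1.32 for Chka, 0.41 for Slc34a1, -0.70 for Car15, -0.87 for Smpd1 and, again on very few counts, 3.56 for Kcnq1ot1. Apart from Fhit, these values were nearer 0 than those from all type B cells, and for Slc34a1, Car15 and Chka by more than 1.5 times. The change itself was not tested.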

How the results depend on the processing

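The calls for EGT against AKI-CKD, 295 genes, were 181 with DESeq2, 463 without a filter on low counts, 155 with the replicate number as a block, 99 with at least 3 type B UMIs, 31 with at least 5 UMIs of the intercalated genes, and 45 (without EGT mouse 3) to 412 (without EGT mouse 1) with a mouse left out. The 2 calls for AKI-CKD against Control were 67 without a filter, 1 in a fit of the 6 mice compared, and 0 with the block, with at least 3 type B UMIs, with at least 5 intercalated UMIs and with at most 10% proximal tubule UMIs, and 0 to 33 (without Control mouse 3) with a mouse left out. The limit of 10% proximal tubule UMIs gave 335 calls for EGT, and RLE scaling and the other library sizes gave 302 and 291, with 2 each for AKI-CKD. The replicate numbers did not pair the mice: correlations of same-numbered deviations ran from -0.241 to 0.103.

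The difference from type A cells, 0 calls in each comparison, was 1 for AKI-CKD and 6 for EGT without a filter, and with a mouse left out 0 to 1 for AKI-CKD (1 without Control mouse 2) and 0 for EGT. The difference from principal cells was 6 for AKI-CKD with RLE scaling, 0 and 17 with at least 5 intercalated UMIs, and 0 to 13 and 47 to 135 with a mouse left out. The share of kept cells differed by -0.0016 to 0.106 points for AKI-CKD and by -0.00997 to 0.138 points for EGT with a mouse left out, and by -0.0159 for EGT with at least 5 intercalated UMIs. The type B percent of intercalated cells ran from -5.06 to 9.19 points and from -1.23 to 6.40 points with a mouse left out. When cells of both sets went to the larger sum it was -0.202 points for AKI-CKD and 8.72 for EGT, and thinned to 1000 UMIs the EGT value was 7.06, against 3.30. The causes were not tested.

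Of the 72 named genes called for EGT, 17 stayed called under every alternative taken singly, and none changed sign there. Fits that joined the limit of at least 5 intercalated UMIs with a mouse left out are not in this count. Without EGT mouse 3 such a fit called 6 of 3890 genes, so at most 6 of the 17 stayed called in it. The limits are 23 to 85 type B cells per mouse, 3 mice a group, and no paired design. Genes with few counts per mouse could not be tested.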
